A study of Arabidopsis thaliana with 6 samples.

Results

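The 10 genes described here encode chaperones and folding enzymes of the endoplasmic reticulum (ER) in Arabidopsis thaliana. They were picked by locus and not by a threshold on measured values, although earlier results of these data were known. The genes are BIP1, BIP2, BIP3, SHD, ERDJ3B, SDF2, CNX1, CRT1, CRT2 and PDIL1-1. All 10 were found on the array, where 16 probes report them, out of 43603 probes in all. Every one of these 16 probes was well above background on all 6 arrays, so all 10 genes were tested. In all, 21827 loci were tested, for which a probe had to be well above background on all 3 arrays of one group or the other.

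Messenger RNA was measured in whole Col-0 wild type seedlings kept in the dark throughout. The treated group received 1 µM lasalocid sodium (LS) for 24 h in a sucrose-containing MS liquid culture, begun at an age of 3 days, and the control group had the same culture lacking LS. LS is the sodium salt of an ionophore, a compound that shuttles cations through lipid membranes. The labels give the control agent as none and do not say whether a solvent was added to the control medium. Each group held 3 single-colour arrays, and as nothing in the labels says that these came from separate cultures, p-values measure the spread between these samples, which may be technical. In whole seedlings, fewer cells of a type and less RNA per cell cannot be told apart.

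Proteins that enter the secretory pathway are folded in the lumen of the ER. BiP, the HSP70 of this compartment, binds unfolded chains in cycles of ATP use that J-domain proteins start. Calnexin and calreticulin hold glycoproteins by their trimmed sugar chains, and protein disulfide isomerases form and rearrange disulfide bonds. When unfolded proteins gather, the sensor IRE1 and membrane-bound bZIP transcription factors raise the transcription of many of these genes, which is called the unfolded protein response. In plants this machinery serves cells that secrete much wall protein, and it is a usual readout of ER stress in seedlings.

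Levels are given as log2 signal relative to the 75th percentile of the same array, so a level of 0 is the 75th percentile and a difference of 1 is a doubling. A gene is represented by its brightest probe, and levels of different probes are not set against each other. A change was called when limma gave a Benjamini-Hochberg adjusted p under 0.05 over all tested probes and the fold was at least 1.5.

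Of the 10 genes, BIP1 and BIP2 rose under LS and no gene fell. Changes of the other 8 did not pass the test. Among all tested loci, 3.18% were called higher and 2.19% lower. In 7 of the 10 genes, namely BIP1, BIP2, ERDJ3B, CNX1, CRT1, CRT2 and PDIL1-1, all 3 LS arrays lay above all 3 control arrays, which held for 17.5% of tested loci. Taken by its median, the set changed by 0.70 on the log2 scale, beside -0.03 for all tested loci, and 9 of 10 were above 0, beside 46.9% of tested loci. Without the adjustment for many tests, limma passed 7 of the 10 genes at the same fold, against a background of 8.82%. The test named in the study's methods, also unadjusted, passed BIP1, BIP2, CNX1 and CRT1, against a background of 5.56%.

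**Figure D1:**
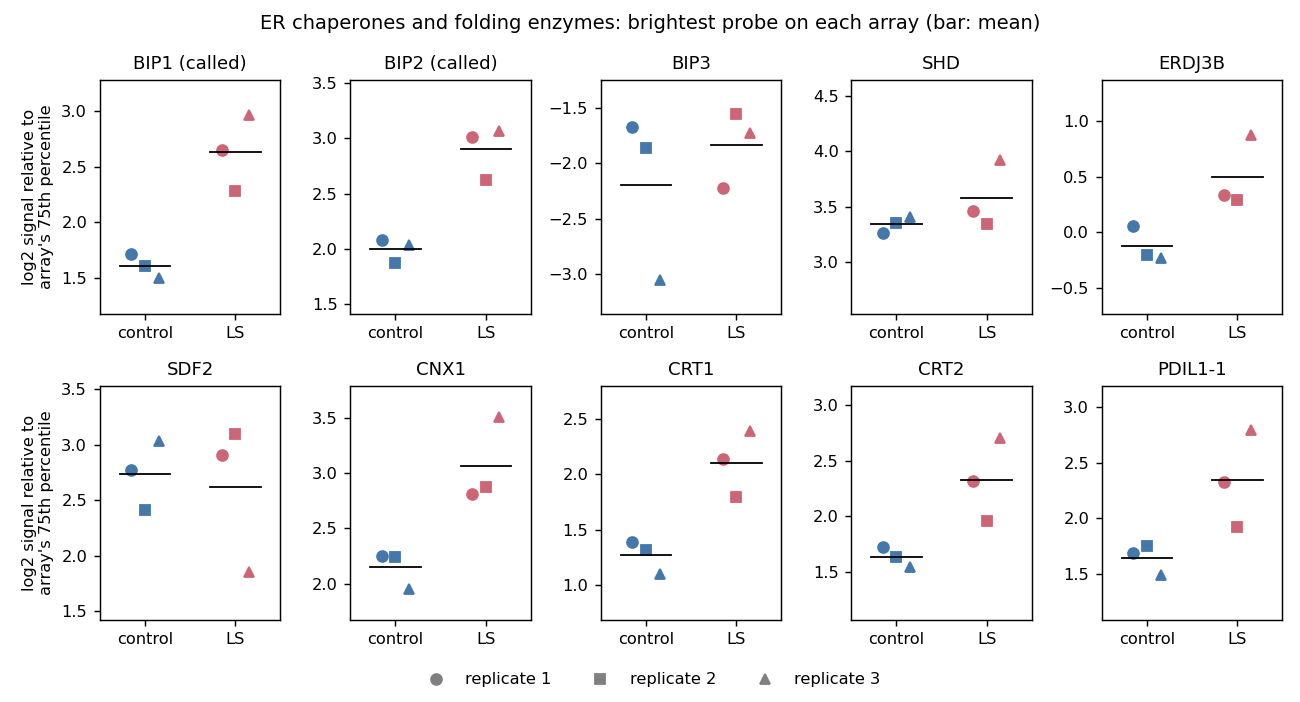
Level of each of the 10 genes on each array, as log2 signal of its brightest probe relative to the array's 75th percentile. Points are single arrays, with a shape for each replicate number, bars are group means of 3 arrays, and every panel spans the same range of log2 units. The 2 groups are apart in 7 panels and overlap for BIP3, SHD and SDF2.

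The plot of levels by array shows the whole set, and the BiP genes come first. BIP1 (AT5G28540), one of the general BiP genes, had levels of 1.72, 1.61 and 1.49 on control arrays 1 to 3 and of 2.65, 2.28 and 2.97 on LS arrays 1 to 3. The groups did not overlap, and the nearest pair of arrays, control 1 and LS 2, was still apart. The log2 fold change was 1.03 with a standard error of 0.21 (2.04-fold, 95% interval 1.46 to 2.84), and the limma adjusted p was 0.0386.

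BIP2 (AT5G42020) is the close paralog of BIP1. It read 2.08, 1.88 and 2.04 in the control group and 3.01, 2.62 and 3.07 in the LS group. Again the groups were apart and LS array 2 was the lowest of its group. Its log2 fold change was 0.90 with a standard error of 0.18 (1.87-fold, interval 1.40 to 2.49), with a limma adjusted p of 0.0381. Because BIP1 and BIP2 are nearly identical in coding sequence and the probe sequences were not analysed here, whether each probe reports its own gene alone is uncertain.

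A dimmer probe of BIP2, assigned to the transcript model AT5G42020.2, gave -2.33, -2.30 and -2.85 in the controls and -1.65, -2.38 and -0.06 under LS. LS array 2 fell within the control range there, while LS array 3 stood far above the other 5 arrays. The estimate of 1.13 was close to that of the bright probe, but its standard error was 0.53 and its limma adjusted p was 0.234.

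BIP3 (AT1G09080) is the BiP gene known for low expression in unstressed plants and strong induction by ER stress. Its control levels were -1.68, -1.86 and -3.05, and its LS levels were -2.23, -1.55 and -1.73. Control array 3 was the lowest of the 6, and LS array 1 was below the other 2 controls. Its estimated change of 0.36 had a 95% interval from -0.51 to 1.23 and a limma adjusted p of 0.582. A second probe for the same transcript gave 0.45, with a limma adjusted p of 0.553. The upper end of the interval lies above the estimates of BIP1 and BIP2, so these arrays do not separate a rise of that size in BIP3 from no change.

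The difference between BIP1 and BIP3 was tested within arrays. The change of BIP1 exceeded that of BIP3 by 0.67 on the log2 scale, with SDs of 0.64 and 0.56 over the control and LS arrays, and the exact two-sided permutation p was 0.2. For BIP2 over BIP3 the difference was 0.54 with an exact p of 0.3, and for BIP1 over BIP2 it was 0.13 with an exact p of 0.4. Each of these 3 p-values was 0.48 after adjustment over the 6 pairs of genes compared, and with 3 arrays in each group the smallest p that this test can give is 0.1.

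SHD (AT4G24190), also called HSP90.7 and the plant counterpart of the HSP90-type chaperone GRP94, had control levels of 3.26, 3.35 and 3.41. Its LS levels were 3.46, 3.34 and 3.92. LS array 2 was within the control range, LS array 1 just above it and LS array 3 well above it. The difference of means was 0.23 on the log2 scale (interval -0.21 to 0.68), with a limma adjusted p of 0.478. The dimmer SHD probe, for model AT4G24190.2, gave 0.32 with a limma adjusted p of 0.67.

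ERDJ3B and SDF2 are co-chaperones that work with BiP in one complex, in which ERDJ3B supplies the J domain. ERDJ3B (AT3G62600) had levels of 0.06, -0.20 and -0.23 in the controls and of 0.34, 0.29 and 0.87 under LS. The groups were apart, and LS array 3 was well above the other 2. LS was higher by 0.63 on the log2 scale with a standard error of 0.21, and at a limma adjusted p of 0.114 it did not pass the test.

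SDF2 (AT2G25110) read 2.78, 2.41 and 3.03 in the controls and 2.90, 3.097 and 1.86 under LS. LS array 3, the highest of the 6 arrays in most of the other genes, was the lowest here, and LS arrays 1 and 2 were within or just above the control range. The difference of means was -0.12 on the log2 scale (interval -0.92 to 0.68), with a limma adjusted p of 0.853. Without LS array 3 it was 0.26. The change of ERDJ3B exceeded that of SDF2 by 0.75 within arrays, with SDs of 0.35 in the controls and 0.99 under LS and an exact permutation p of 0.4, or 0.48 adjusted over the 6 pairs.

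Among the lectin chaperones, CNX1 (AT5G61790), a calnexin anchored in the ER membrane, had levels of 2.25, 2.24 and 1.95 in the controls. Under LS it read 2.81, 2.88 and 3.51. The groups were apart by more than the whole spread of the controls. The log2 fold change was 0.92 with a standard error of 0.23 (1.89-fold), but the limma adjusted p of 0.0601 was above the threshold.

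A second CNX1 probe gave 0.96, 0.98 and 0.60 in the controls and 2.13, 1.37 and 2.31 under LS. The groups were apart here too, and the log2 fold change was 1.09 with a limma adjusted p of 0.0601. The 2 probes ordered LS arrays 1 and 2 in opposite ways.

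CRT1 (AT1G56340) and CRT2 (AT1G09210) encode calreticulins, soluble lectins of the ER lumen that also bind calcium. CRT1 read 1.39, 1.31 and 1.10 in the controls and 2.14, 1.79 and 2.39 under LS. Its log2 fold change was 0.84 with a standard error of 0.20 (1.79-fold) and a limma adjusted p of 0.0552, just above the threshold.

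CRT2 read 1.72, 1.63 and 1.54 in the controls and 2.32, 1.96 and 2.70 under LS. Both calreticulin genes had the 2 groups apart, with LS array 2 lowest and LS array 3 highest of the LS group. CRT2 changed by 0.69 on the log2 scale with a standard error of 0.21 and a limma adjusted p of 0.0983. The change of CRT1 exceeded that of CRT2 by 0.14, which was larger than the SDs of 0.07 and 0.08, and the exact permutation p was 0.1, the smallest possible, or 0.48 over the 6 pairs. CNX1 exceeded CRT1 by 0.08, with an exact permutation p of 0.6, which adjustment over the pairs left unchanged.

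PDIL1-1 (AT1G21750), a protein disulfide isomerase of the classical type with thioredoxin domains, read 1.69, 1.75 and 1.48 in the controls. Under LS it read 2.32, 1.92 and 2.79. LS array 2 lay only a little above the highest control. LS was higher by 0.71 on the log2 scale with a standard error of 0.24, and the limma adjusted p was 0.121.

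Model AT1G21750.2 of PDIL1-1 has 2 further probes. One kept the groups apart with a log2 fold change of 0.69 (limma adjusted p of 0.153). The other gave 0.84, but LS array 2 fell within its control range, and its standard error of 0.50 left a limma adjusted p of 0.335.

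**Figure D2:**
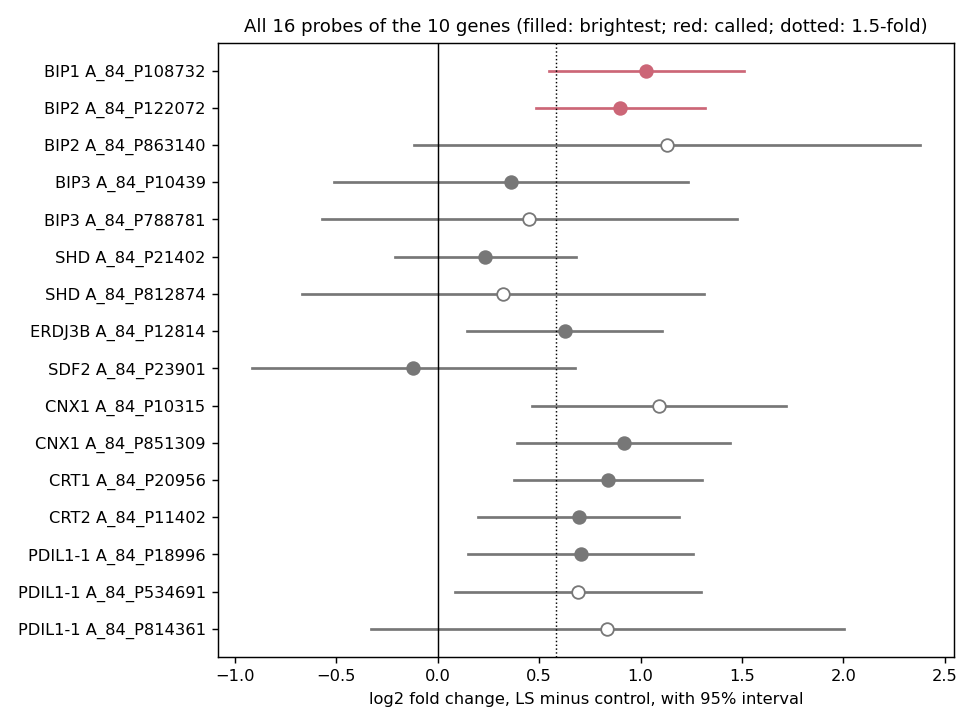
Log2 fold change of LS over control (x axis) for all 16 probes of the 10 genes, with 95% intervals from limma. Filled points are the brightest probe of a gene, red marks the 2 called probes, and the dotted line is 1.5-fold. The widest intervals are those of the dimmest BIP2, PDIL1-1, BIP3 and SHD probes.

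In the plot of fold changes by probe, 15 of 16 estimates were above 0 and SDF2 was the exception. For the 5 genes with more than 1 probe, no probes disagreed in direction, but BIP2 was called through its bright probe alone. The dimmest probes of BIP2, BIP3, SHD and PDIL1-1, which had the widest intervals, all read highest on LS array 3.

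The LS arrays did not contribute equally. Relative to the control mean, the 10 genes had a median deviation of 0.67 on LS array 1, 0.47 on LS array 2 and 1.07 on LS array 3. LS array 3 was the highest of its group in 8 of 10 genes, beside 35.5% of tested loci and 43.7% of those with a log2 fold change above 0. The full order with LS array 2 lowest and LS array 3 highest was seen in 7 of 10 genes, beside 17.3% of tested loci and 25.2% of those with a log2 fold change above 0.

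LS array 1 was on the same slide as the 3 controls, and LS arrays 2 and 3 were on another slide. On LS array 1, 8 of the 10 genes lay above all 3 controls, as did 34.4% of tested loci, and on LS arrays 2 and 3 it was 9 and 8 genes beside 33.1% and 37.8% of loci. With slide as a block, so that only LS array 1 is compared with controls, BIP1 changed by 1.04 and BIP2 by 1.01, with limma adjusted p of 0.202 and 0.167, and neither was called. CNX1 changed by 0.66 and CRT1 by 0.87 in that fit.

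LS array 3 also stood apart in other ways. The median of the spike-in probes, RNA added in fixed amount, lay 0.54 above the 75th percentile on LS array 3 on the log2 scale and between 1.62 and 2.30 above it on the other 5 arrays. The gap between the brightest and the dimmest probe of one gene was smallest on LS array 3 in 48.5% of 5985 loci with several probes. Among the 5 genes of the present set with several probes it was smallest there in BIP2, BIP3, SHD and PDIL1-1, and smallest on LS array 1 in CNX1. In BIP2 the gap was 3.13 on LS array 3 and at least 4.17 on the other 5. The part of these differences in the changes of the 10 genes was not tested. Without LS array 3 BIP1 changed by 0.86 and BIP2 by 0.82, at limma adjusted p of 0.0567 and 0.0621, and neither was called. That loss was not particular to LS array 3. Leaving out control 1, control 2, control 3 or LS 1 also ended both calls, at larger limma adjusted p.

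**Figure D3:**
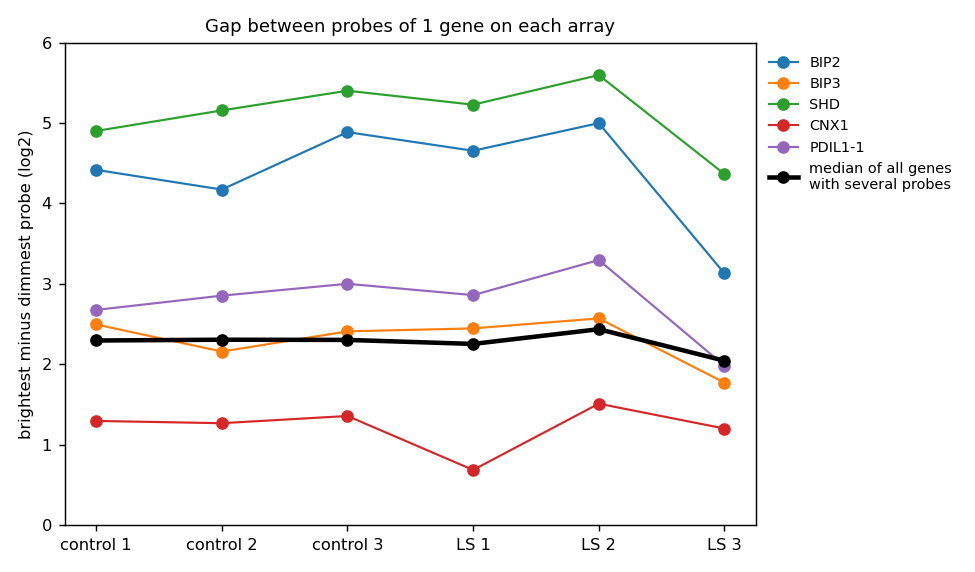
Gap in log2 signal between the brightest and the dimmest probe of one gene (y axis) on each array (x axis), for the 5 genes with several probes and, in black, the median over 5985 loci. The black line is at 2.04 on LS array 3 and between 2.25 and 2.43 on the other arrays, and the BIP2 line drops to 3.13 on LS array 3.

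Over the 6 arrays, most of the 10 genes had like profiles. The Pearson correlation of each gene with the mean of the other 9 was between 0.93 and 0.99 for the 7 genes with separate groups, 0.69 for SHD, 0.37 for BIP3 and -0.55 for SDF2. These correlations describe 6 arrays that share scaling and fall into 2 groups. The loci outside the set with the profile most like its mean were LAG13 (r of 0.999), AT1G55760 (0.998), CRCK3 (0.998), AT4G21140 (0.997) and GSO1 (0.996). Of 21640 loci compared, 1457 had an r above 0.9.

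Other genes of the ER folding pathway were listed from knowledge of the pathway, with earlier results of these data known. Of 23 further folding genes (disulfide isomerases, J-domain proteins, ER oxidases and others), 3 rose, none fell and 20 did not pass the test, again with 3.18% and 2.19% of tested loci as background. Their median log2 fold change was 0.22 and 16 were above 0.

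The called genes among them were PDIL1-2, PDIL1-3 and HSP70-17. PDIL1-2, the nearest relative of PDIL1-1, read -0.36, -0.24 and -0.54 in the controls and 0.81, 0.66 and 1.14 under LS, a log2 fold change of 1.25 (limma adjusted p of 0.0252). PDIL1-3, a further disulfide isomerase, changed by 1.03 (limma adjusted p of 0.03). HSP70-17, an ER member of the HSP70 family, changed by 0.67 (limma adjusted p of 0.0494) by its brightest probe, while its second probe gave 0.44 with overlapping groups (limma adjusted p of 0.528). In the brightest probes of all 3 genes the groups were apart. Of these folding genes, 0 were called without control 1, control 2, control 3 or LS 1, and 1 without LS 3. A second PDIL1-3 probe was called as well, at 1.12, whereas the third, for model AT3G54960.2, gave -0.48 with all LS arrays below all controls and a limma adjusted p of 0.21.

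ER-associated degradation takes misfolded proteins out of the ER (HRD1, HRD3A, OS9 and DER1-type proteins). Of its 7 listed genes limma called 0, beside 3.18% of tested loci called higher and 2.19% lower. With the 1.5-fold threshold kept, 0 passed at an unadjusted p under 0.05 by limma or by the test of the methods. As higher, these unadjusted tests passed 8.82% and 5.56% of tested loci. The 7 genes had log2 fold changes between -0.12 and 0.39 with a median of 0.10.

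Among 8 sensors and transcription factors of the unfolded protein response, 1 was called higher, beside 3.18% of tested loci. This was NAC103, a NAC factor induced by ER stress. Its levels were -5.08, -5.36 and -4.50 in the controls and -1.59, -1.97 and -1.32 under LS, a log2 fold change of 3.35 (limma adjusted p of 0.00453). The other 7, namely IRE1A, IRE1B, BZIP60, BZIP28, BZIP17, NAC062 and NAC089, had log2 fold changes between -0.31 and 0.37 and did not pass the test. Whether the BZIP60 probe tells the spliced form that IRE1 makes from the unspliced one is not known here. Its control levels of 4.80, 5.01 and 5.16 overlapped its LS levels of 5.36, 5.07 and 5.12.

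Heat shock proteins outside the ER, of the cytosol, plastids and mitochondria, were read as a list from other compartments. By brightest probe limma called 0 of 20, beside 3.18% of tested loci called higher and 2.19% lower. At an unadjusted p under 0.05 with the 1.5-fold threshold kept, limma passed 2 as higher and 1 as lower. The test of the methods, also unadjusted, passed 1 in each direction. As higher, these unadjusted tests passed 8.82% and 5.56% of tested loci, and the unadjusted shares passed as lower are not given here. Over the 20 heat shock proteins the median change was -0.06 on the log2 scale, with 6 above 0. One dimmer probe of HSC70-3, a cytosolic HSP70, was called lower at -1.42 (limma adjusted p of 0.0304), while its 2 other probes gave -0.01 and -0.05. HSP101 lacked a value on control array 3 and was fitted on the other 5.

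**Figure D4:**
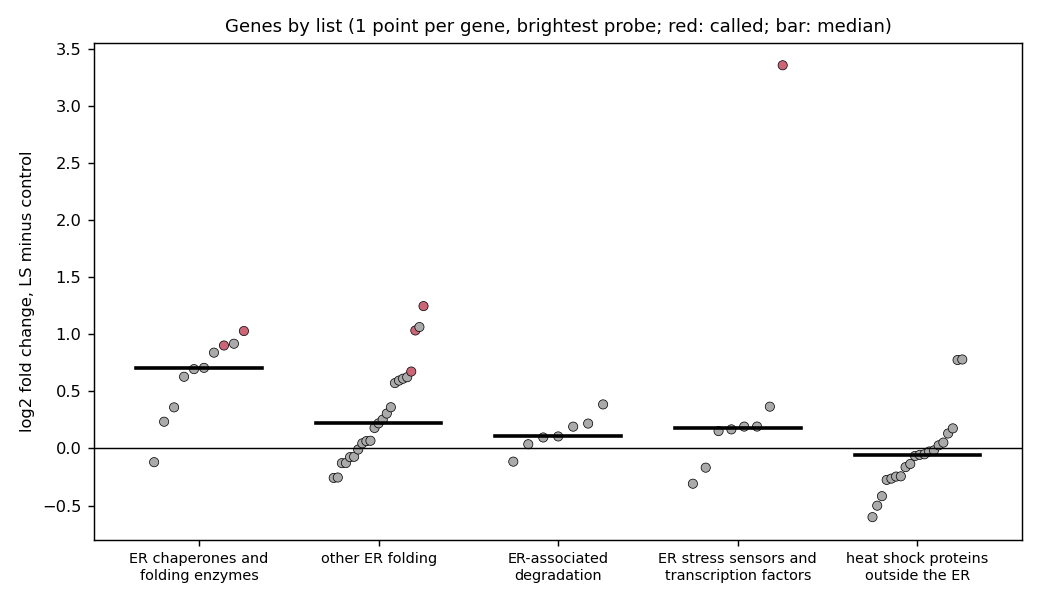
Log2 fold change of LS over control (y axis) for each gene by its brightest probe, in 5 lists, with called genes in red and the list median as a bar. The median is 0.70 for the 10 ER chaperones and folding enzymes, 0.22 for other ER folding genes, 0.10 for ER-associated degradation, 0.18 for sensors and transcription factors and -0.06 for heat shock proteins outside the ER.

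The plot of lists shows overlap between the 10 genes and the upper part of the other ER folding genes, with NAC103 far above every other gene. The lists were not tested against each other.

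Markers of dark-grown seedlings were read as a check of the tissue. PORA and PORB, the protochlorophyllide reductases of dark-grown seedlings, and PYK10, an abundant enzyme of ER bodies, had levels between 3.71 and 7.24 on all 6 arrays. By its brightest probe, PYK10 read 7.05, 7.24 and 7.22 in the controls and 6.96, 5.38 and 6.82 under LS, below all controls on every LS array. PYK10 has 7 probes, and the low value on LS array 2 was not shared by its second brightest, which read 6.62 there. Apart from the brightest, the PYK10 probes had log2 fold changes between -0.22 and 0.22, so they do not show a common fall. COBL9 of root hairs read -0.62, -0.79 and -2.57 in the controls and 0.24, 0.35 and 0.36 under LS. Its log2 fold change of 1.64 (limma adjusted p of 0.0894) thus owed much to the low control array 3. GL2 of the epidermis had a log2 fold change of -0.69 (limma adjusted p of 0.0574). In both genes the groups were apart, with LS above in COBL9, as in 17.5% of tested loci, and below in GL2. None of the 5 markers passed the limma test with adjustment. Without it limma passed COBL9 as higher, beside 8.82% of tested loci, and GL2 as lower. The test of the methods, unadjusted, passed GL2 as lower and did not pass COBL9. The shares of tested loci that these unadjusted tests passed as lower are not given here. Whether a shift between cell types has a part in the levels of the 10 genes was not tested.

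The calls of BIP1 and BIP2 were also set against 23 other ways of processing, testing or leaving out arrays. BIP1 was called in 12 of them and BIP2 in 10. Those counts include the settings with no fold threshold and with limma unadjusted, which only loosened the rule and could not end a call. Leaving out control 1, control 2, control 3, LS 1 or LS 3 ended both calls, and with 1 array left out the limma adjusted p ranged from 0.0369 to 0.135 for BIP1 and from 0.0387 to 0.144 for BIP2. Without LS 2 both were called and CRT1 was called with them, at a limma adjusted p of 0.0451. CRT1 was called in 5, CNX1 in 4, CRT2 in 2, and ERDJ3B and PDIL1-1 in 1 each, while BIP3, SHD and SDF2 were called in none. The log2 fold change of BIP1 ranged from 0.86 to 1.64 and that of BIP2 from 0.82 to 1.51, and the median over the 10 genes ranged from 0.49 to 1.31. The direction changed in BIP3 and SDF2 alone.

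**Figure D5:**
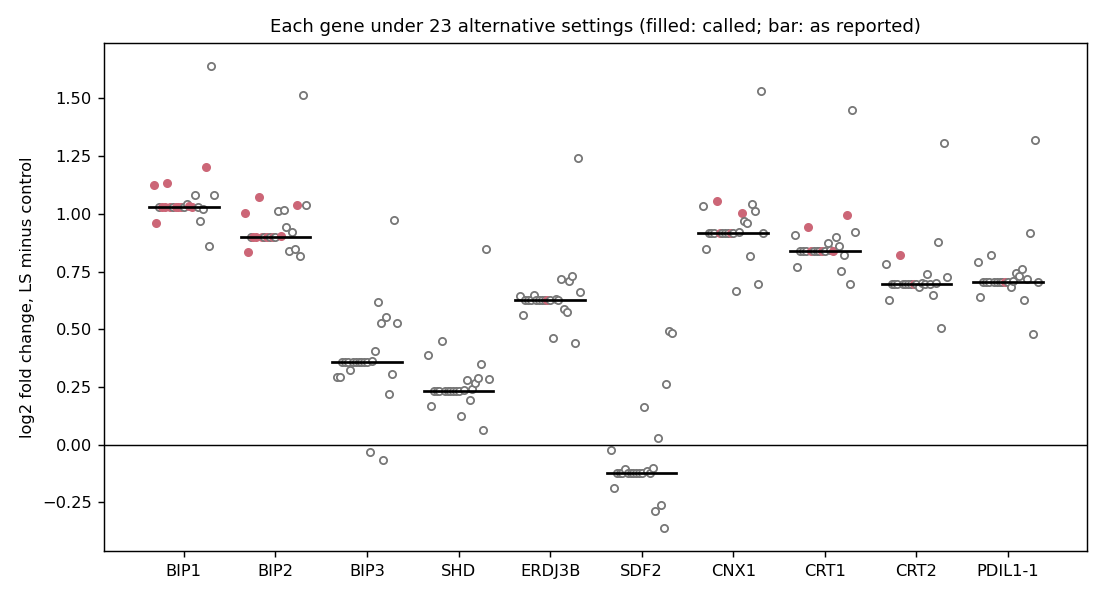
Log2 fold change of LS over control (y axis) of each gene under 23 alternative settings, with filled points where the gene was called and a bar at the value as reported. BIP1 is filled in 12 settings and BIP2 in 10, and only BIP3 and SDF2 have points below 0 for a bar above it or above 0 for a bar below it.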

How the data were processed

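RNA from 6 whole-seedling samples, 3 control and 3 LS, was labelled with Cy3 and hybridised to single-colour Agilent arrays. Scanned images were read with the software Agilent Feature Extraction 10.7.3.1, per the file headers, and the authors deposited a background-subtracted intensity for each spot. A second deposited file lists, for 38614 spots, the ratio of the signal to that array's 75th percentile.

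Here the deposited intensity was taken as log2 minus the 75th percentile of each array. Spots marked as outliers were set missing, 1417 control spots were left out and spots of a probe were averaged. Tested probes were well above background on all 3 arrays of a group (32370 probes, 840 called higher and 793 lower). The 75th percentile signal was 1067 to 2123, and 72.6% to 77.0% of spots were well above background. The number of arrays limits the precision. Tests used limma 3.58.1 in R 4.3.3 (lmFit, eBayes) and were tried on simulated data. The simulation held 32120 probes with independent normal noise and no slide or array effect. In it, 100 probes were given a log2 change of 1 and 100 a change of 2. The tests recovered 20% of the former and 86% of the latter. On the real arrays 8273 tested probes had an unadjusted limma p under 0.05, and the adjustment depends on that number. The recovered shares therefore hold for the simulated setting only. Exact permutation was over arrays. No sample column was left unmapped (0).

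Samples were grouped by their labels. All 10 genes are named. Of each other list, up to 4 called genes with the largest change are named, with the transcription factors and the 5 loci of most similar profile. HSC70-3 was named after its values were seen. Members and lists were chosen with earlier results of these data known. Names of 21613 of the 21827 tested loci matched the reference, whose build differs from the array's older design, so no coordinates are given, and no sequences were analysed here. The alternatives were other scaling, background correction, filters, thresholds and tests, the replicate block, slide as a block, the deposited table, the mean of a gene's probes, each array left out, and, added after seeing the data, scaling on spike-in probes.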

Additional observations from a re-analysis of the deposited data

How the results depend on the processing

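Of the 10 genes, 2 were called higher as reported. The count was 5 with normexp background correction and quantile scaling, 4 with the methods' test unadjusted and 0 with it adjusted, 1 at a fold of at least 2, and 7 with limma unadjusted. It was 0 with no filter on dim probes, with slide as a block and with spike-in scaling, with or without LS array 3. When probes of a gene were averaged 3 were called, as BIP2 was lost (limma adjusted p of 0.0911) and CNX1 and CRT1 were gained (0.039 and 0.0413). Leaving out 1 array gave 0 to 3 genes, with 0 called without control 1, control 2, control 3, LS 1 or LS 3 and 3 (CRT1 added) without LS 2.

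Whether the replicate numbers pair the samples is not known here. Deviations of same-numbered arrays correlated at 0.03, -0.12 and -0.19, and those of differently numbered arrays at -0.13 to 0.20. With 3 arrays in each group, these values cannot decide the question. In the fit with the replicate block, 0 of the 10 genes were called, BIP1 and BIP2 had limma adjusted p of 0.0851 and 0.0788, 0 other ER folding genes were called, and 197 probes were higher and 167 lower.

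BIP3 turned to -0.032 with slide as a block and ranged from -0.067 to 0.62 with 1 array left out. SDF2 turned to 0.16 with slide as a block and to 0.49 and 0.48 with spike-in scaling with and without LS array 3, and ranged from -0.36 to 0.26 with 1 array left out. Spike-in scaling with all arrays moved the median of all loci to 0.58 and that of the 10 genes to 1.31, and without LS array 3 it moved the median of all loci to 0.20. The causes were not tested.

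Other ER folding genes called higher were 3 as reported, 0 with no filter, with slide as a block and with the methods' test adjusted, 5 with normexp, 6 with limma unadjusted, 1 with the mean of all probes, 1 with spike-in scaling and 0 to 2 with 1 array left out. NAC103 was lost (0 called) only with the methods' test adjusted. Heat shock proteins outside the ER called higher went from 0 to 1 with normexp, to 1 with the methods' test unadjusted, to 2 with limma unadjusted and to 1 with spike-in scaling without LS array 3. Of all tested loci, 3.18% were called higher as reported, 8.82% with limma unadjusted and 5.56% with the methods' test unadjusted. The number of calls over all probes also moved between settings, so the counts of a list do not describe that list alone.

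Over all probes, 840 were called higher and 793 lower, so 51.4% of calls were higher. Higher and lower were 135 and 107 with no filter, 1517 and 1632 with the methods' test unadjusted, 1 and 0 with it adjusted, 2531 and 3297 with limma unadjusted, and 24 and 83 with slide as a block. At a fold of at least 2, 559 were higher, and 73 were lower with spike-in scaling and 461 without LS array 3. Leaving out 1 array gave 48 to 736 higher and 20 to 632 lower. The share higher was 64.3% with normexp, 100% with the methods' test adjusted, 22.4% with slide as a block, 66.4% without control 1, 70.6% without control 2, 29.2% without LS 1, and 92.2% and 71.3% with spike-in scaling with and without LS array 3.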
